A study of Mus musculus with 9 samples.

Results

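The genes described are the tumour necrosis factor (TNF) superfamily, its receptors and the adaptors that carry their signals, in endothelial cells sorted from mouse liver. Members were chosen by symbol: every row of the count table named Tnfrsf or Tnfsf, every Traf with a number, and Tnf, Lta, Ltb, Ltbr, Fas, Fasl, Cd40, Cd27, Cd70, Ngfr, Tradd and Ripk1. The rule gave 52 of the 52636 rows: 17 ligands, 25 receptors, 9 adaptors and 1 antisense transcript. Polyadenylated RNA was sequenced from 4 control libraries labelled Wild Type and 5 libraries labelled Erg and Fli1 double knockout. All 9 carry the same protocol text, in which tamoxifen was given to start the deletion and cells were taken from the liver at day 7. The mice had received a VE-cadherin antibody in life, and the sort kept live cells that stained for CD31 and VE-cadherin and not for CD45. Not given in the sources used here were the Cre driver, the strain and the age of the mice.

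TNF superfamily ligands are mostly trimeric membrane proteins, some of which are shed, and each engages 1 or a few receptors. Receptors with a cytoplasmic death domain recruit Tradd or Fadd and can start apoptosis through caspase 8, whereas most others recruit TRAF adaptors and activate NF-kB and MAP kinases. Decoy receptors bind ligand without passing on a death signal. In endothelium the family is best known for the response to TNF, in which adhesion molecules for leukocytes are induced. Liver sinusoidal endothelium also meets TRAIL and Fas ligand carried by immune cells of the sinusoid.

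Libraries held between 31613059 and 34663989 counts in the controls and between 26791371 and 36401682 counts in the others. Values are CPM, a gene's counts scaled by the TMM-adjusted library total, given per library in the order of the replicate numbers and as mean ± SD, with n = 4 control and n = 5 other libraries. Erg fell from 312 ± 17.8 to 143 ± 10.9 CPM (log2 fold change -1.12 ± 0.08, SE, with edgeR adjusted p = 2.61e-05). Fli1 went against its label, from 100.1 ± 8.01 to 147 ± 22.5 CPM (log2 fold change 0.56 ± 0.12, edgeR adjusted p = 0.00636), so the second group is called "libraries labelled knockout" throughout. The deleted exons are not named in the labels, and a count over the whole gene may not show the loss of an exon. Pan-endothelial markers summed to 15553 to 17260 CPM in the controls and 11759 to 17071 CPM in the libraries labelled knockout, and the sinusoidal markers to 24149 to 26167 and 10635 to 17067 CPM. T and NK cell markers came to 0.532 to 2.44 and 1.54 to 2.21 CPM in sum, with all 12 of the list under 1 CPM on average in each group. Neutrophil markers were at 1.17 to 6.34 CPM in the controls and 8.42 to 25.2 CPM in the libraries labelled knockout, and platelet and erythroid markers at 19.5 to 31.5 and 37.5 to 77.0 CPM. Hepatocyte markers ranged from 156 to 367 and from 18.3 to 208 CPM, and macrophage markers from 106 to 409 and from 81.3 to 609 CPM. General leukocyte markers summed to 159 to 238 and 220 to 324 CPM, with Ptprc, which encodes CD45, at 5.81 ± 0.677 and 7.74 ± 3.20 CPM. The dendritic cell list summed to 302 to 439 and 140 to 222 CPM, with 5 of its 6 genes under 1 CPM on average in each group and nearly all of the sum from Zbtb46. Stellate cell markers ranged from 5.96 to 10.6 and from 3.34 to 22.2 CPM, cholangiocyte markers from 2.16 to 6.35 and from 1.97 to 17.0 CPM, and lymphatic markers, with Ccl21a at 0 throughout, from 3.15 to 5.76 and from 5.97 to 15.2 CPM. The part of these cells in the results was not tested. In bulk samples such as these, fewer cells of a type and less RNA per cell cannot be told apart.

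Replicates 2 and 3 of the libraries labelled knockout stood apart from the other 3. Their counts differed from those of the other 3 by a chi-square of 120 to 182 per degree of freedom, against 28.8 to 50.4 among the other 3. Replicates 2 and 3 also differed from each other, by 98.4 per degree of freedom. Pan-endothelial markers of replicates 2 and 3 summed to 11759 and 12342 CPM against 16204 to 17071 CPM, their stellate markers to 22.2 and 12.9 against 3.34 to 4.80 CPM, and their lymphatic markers to 12.2 and 15.2 against 5.97 to 7.15 CPM. Without them 8 members were called higher and 9 lower.

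Of the 52 members, 35 passed the filter on low counts and were tested. Among them 7 rose and 9 fell in the libraries labelled knockout at an edgeR adjusted p under 0.05, 16 in all. Over all 14583 genes tested, 29.3% were called, 14.5% higher and 14.8% lower. Of the 35 members tested, 10 were called with a change of at least 2-fold in the fit, and 12 were called with groups that did not overlap in CPM. Among all 14583 genes tested, 1649 (11.3%) and 3577 (24.5%) met these conditions. Taken over called genes only, this was 10 and 12 of 16 members, beside 1649 and 3577 of 4271 genes. Called or not, the libraries labelled knockout all lay above the controls for 5 members and all below them for 8, against 13.2% and 13.8% of all genes tested. The median log2 fold change of the tested members was 0.08, beside 0.01 over all genes tested. The falls lay among the ligands Tnf and Tnfsf10, the death domain receptors Fas and Tnfrsf25, the decoy receptors Tnfrsf22 and Tnfrsf23, the receptors Cd27 and Tnfrsf14, and the adaptor Traf7. The rises lay among Tnfrsf26, Cd40, Tnfrsf13b and Tnfrsf9 of the receptors and Traf1, Traf4 and Traf5 of the adaptors.

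**Figure D1:**
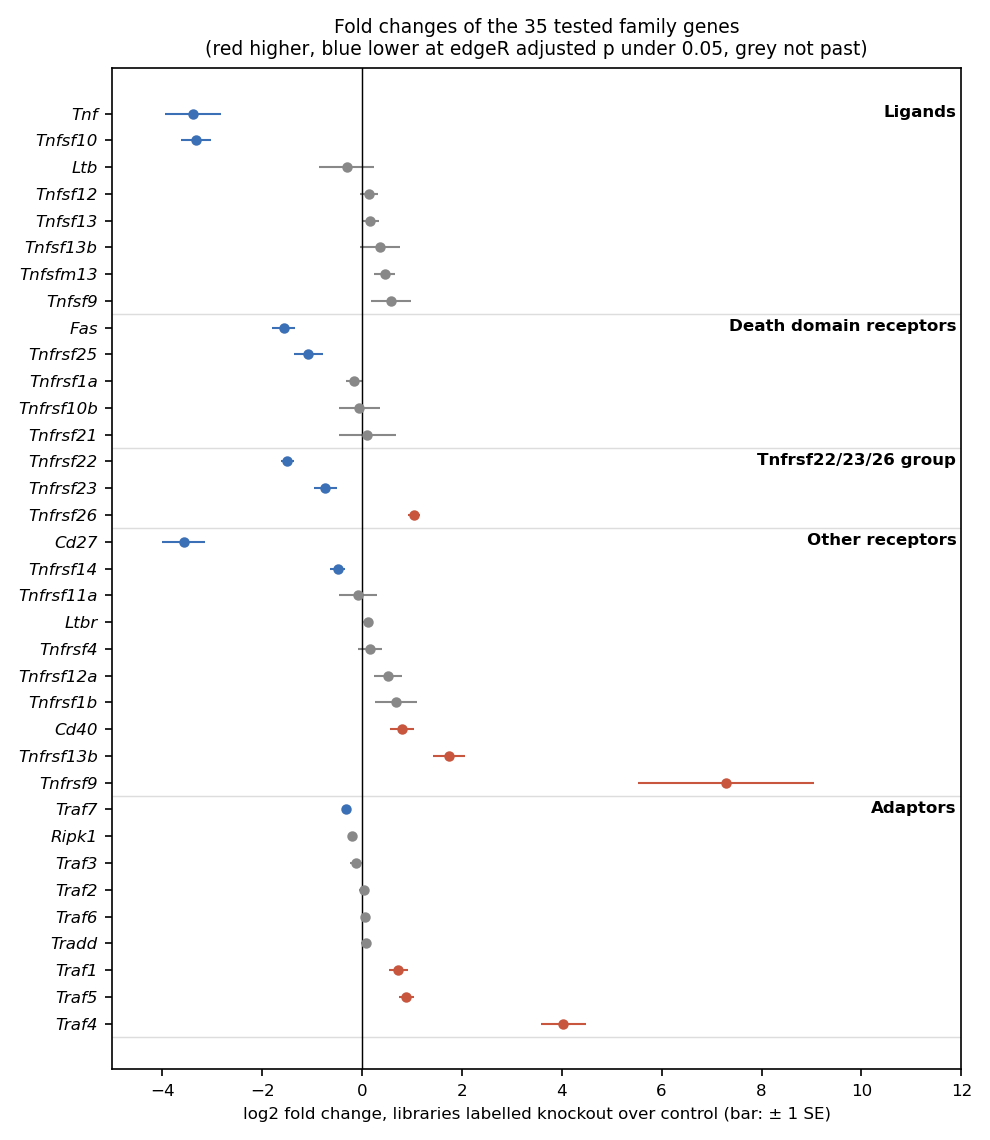
Log2 fold change of the 35 tested members, libraries labelled knockout over control, grouped by role, with error bars of 1 standard error from edgeR; red points rose and blue points fell at an adjusted p under 0.05, and grey points missed it. Cd27, Tnf and Tnfsf10 stand lowest, between -3.57 and -3.33, and Traf4 and Tnfrsf9 stand highest, at 4.03 and 7.30.

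Of the 17 ligands 8 were tested, and 2 fell while none rose. Tnfsf10 (ENSMUSG00000039304, GRCm38 chromosome 3, 27317028 to 27342427, plus strand) encodes TRAIL, a ligand that triggers apoptosis through death domain receptors. It stood at 364, 329, 307 and 265 CPM in the controls and at 43.0, 14.1, 24.97, 42.7 and 32.5 CPM in the libraries labelled knockout. Every library of the second group lay far under the lowest control, and the mean fell 10.1-fold, from 317 ± 41.5 to 31.5 ± 12.3 CPM. The log2 fold change, with its SE as error here and below, was -3.33 ± 0.30 (edgeR adjusted p = 8.09e-05).

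Tnf (ENSMUSG00000024401, chromosome 17, 35199381 to 35202007, minus strand), the founding ligand and an inducer of endothelial inflammation, was less abundant. Its level was 19.0, 13.6, 6.15 and 4.84 CPM in the controls and 1.69, 1.73, 0.520, 0.368 and 0.902 CPM in the libraries labelled knockout. The controls spread widely but did not overlap with the second group, and the mean fell 10.4-fold from 10.9 ± 6.62 to 1.04 ± 0.641 CPM (log2 fold change -3.38 ± 0.56, edgeR adjusted p = 0.00198). Tnf is also a product of macrophages, whose markers summed to 409, 229, 106 and 255 CPM in the 4 controls and to 346, 609, 116, 192 and 81.3 CPM in the libraries labelled knockout, with none of the 10 markers past the threshold. Their part in the fall of Tnf was not tested. The neighbouring ligand genes of this cluster were scarce: Ltb, at 0.489 ± 0.334 and 0.395 ± 0.144 CPM, did not pass the test (edgeR adjusted p = 0.706), and Lta had 0 counts in the controls and 1 in the libraries labelled knockout.

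The other 5 tested ligands missed the threshold as well. Tnfsf12, which encodes TWEAK, was the most abundant of them at 33.1 ± 2.67 and 36.6 ± 9.55 CPM (log2 fold change 0.14 ± 0.18, edgeR adjusted p = 0.597). When replicates 2 and 3 labelled knockout were both left out it passed, at a log2 fold change of 0.40 (edgeR adjusted p = 0.00925). Tnfsf13, which encodes APRIL, stood at 4.84 ± 0.814 and 5.45 ± 0.767 CPM, and Tnfsf13b, which encodes BAFF, at 0.331 ± 0.154 and 0.422 ± 0.151 CPM. The read-through gene Tnfsfm13 was at 1.73 ± 0.312 and 2.37 ± 0.346 CPM, but 44.0% and 32.7% of its exon bases lie in Tnfsf13 and Tnfsf12 exons, so reads of these 3 genes cannot be assigned between them with certainty. Tnfsf9, the ligand of Tnfrsf9, was at 3.56 ± 0.967 and 5.29 ± 2.95 CPM (edgeR adjusted p = 0.308). Its values in the libraries labelled knockout were 3.63, 9.35, 7.43, 2.504 and 3.51 CPM, with replicates 2 and 3 above all 4 controls, which reached 4.42 CPM.

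Among death domain receptors, 5 of 6 were tested and 2 fell. Fas (ENSMUSG00000024778, chromosome 19, 34290666 to 34327772, plus strand), the receptor of Fas ligand, was at 78.9, 96.7, 106 and 70.3 CPM in the controls. In the libraries labelled knockout it was at 29.8, 23.3, 18.9, 42.9 and 33.2 CPM, all under the lowest control. The mean fell 2.97-fold from 87.9 ± 16.2 to 29.6 ± 9.29 CPM (log2 fold change -1.57 ± 0.23, edgeR adjusted p = 0.00101). Its ligand Fasl stayed under the filter, with 11 counts in all 4 controls together and 19 in the 5 libraries labelled knockout.

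Tnfrsf25 (chromosome 4, 152115934 to 152120119, plus strand), the receptor for Tnfsf15, was at 3.04, 5.65, 5.99 and 8.03 CPM in the controls and at 2.43, 3.27, 3.14, 1.58 and 3.04 CPM in the libraries labelled knockout. Control replicate 1 lay within the range of the second group, and the mean fell 2.11-fold (log2 fold change -1.07 ± 0.30, edgeR adjusted p = 0.0226). That call ended without control replicate 2, 3 or 4 (edgeR adjusted p = 0.0533, 0.0549 and 0.0670). Tnfrsf1a, the main receptor for soluble TNF, was the most abundant member at 602 ± 50.2 and 539 ± 117 CPM, and its log2 fold change of -0.16 ± 0.16 did not pass (edgeR adjusted p = 0.494). Its 5 values in the libraries labelled knockout ran from 375 to 682 CPM, across the control range of 554 to 663 CPM. Tnfrsf10b, the signalling TRAIL receptor of the mouse, was at 4.04 ± 0.954 and 3.87 ± 2.32 CPM and Tnfrsf21 at 1.48 ± 0.647 and 1.59 ± 1.35 CPM, each with an edgeR adjusted p above 0.9.

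A cluster of 3 receptor genes on chromosome 7, all on the minus strand, split in direction. Tnfrsf22 and Tnfrsf23 encode decoy receptors for TRAIL that lack a death domain, and Tnfrsf26 is their neighbour, with 6083 bases between Tnfrsf26 and Tnfrsf22 and 16147 between Tnfrsf22 and Tnfrsf23. Tnfrsf22 (143634806 to 143649661) stood at 51.8, 50.3, 72.4 and 55.1 CPM in the controls and at 21.6, 17.0, 19.8, 21.7 and 21.8 CPM in the libraries labelled knockout. The groups lay apart and the second was narrow, and the mean fell 2.81-fold from 57.4 ± 10.2 to 20.4 ± 2.05 CPM (log2 fold change -1.49 ± 0.12, edgeR adjusted p = 4.82e-05). Tnfrsf26 (143607659 to 143628722) stood at 39.6, 43.9, 44.4 and 44.3 CPM in the controls and at 89.8, 70.7, 108, 79.5 and 93.9 CPM in the libraries labelled knockout. All 5 lay above every control, and the mean rose 2.05-fold from 43.0 ± 2.28 to 88.4 ± 14.3 CPM (log2 fold change 1.04 ± 0.12, edgeR adjusted p = 2.42e-04).

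Tnfrsf23 (143665809 to 143685872) stood at 32.0, 31.3, 42.9 and 36.3 CPM in the controls and at 18.8, 20.4, 35.9, 15.3 and 16.7 CPM in the libraries labelled knockout. Replicate 3 of the second group lay among the controls and the other 4 lay below them. The mean fell 1.66-fold from 35.6 ± 5.34 to 21.4 ± 8.32 CPM (log2 fold change -0.73 ± 0.24, edgeR adjusted p = 0.0439). This call was the least firm of the cluster: it ended in the fit without a count filter (edgeR adjusted p = 0.0879), and without any single library other than that replicate 3 (edgeR adjusted p between 0.0670 and 0.116). Without replicate 3 the log2 fold change was -0.997 (edgeR adjusted p = 7.37e-04).

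Tnfrsf22 and Tnfrsf23 are close copies, and they are shown because reads from stretches they share cannot be told apart. Their coding sequences were identical at 474 of 528 aligned bases, 89.8%, against 53.7% and 52.3% with Tnfrsf26. Of all distinct 50-base windows of their spliced transcripts, 17.3% of those in Tnfrsf22 and 18.01% of those in Tnfrsf23 were shared between them. With Tnfrsf26, 0 were shared. How the counting treated such reads is not given in the sources used here, so the split of counts between Tnfrsf22 and Tnfrsf23 is uncertain. The most similar 120 coding bases are printed from the GENCODE M21 transcripts, coding bases 384 to 503 of Tnfrsf22 and 354 to 473 of Tnfrsf23, with the 2 bases that differ in capitals.
Tnfrsf22: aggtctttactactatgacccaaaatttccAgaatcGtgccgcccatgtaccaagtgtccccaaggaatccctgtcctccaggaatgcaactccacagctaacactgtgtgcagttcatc
Tnfrsf23: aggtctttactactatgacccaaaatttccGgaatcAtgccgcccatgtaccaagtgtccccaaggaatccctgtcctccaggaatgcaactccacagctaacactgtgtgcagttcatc
Tnfrsf11b, which encodes osteoprotegerin, a soluble decoy for RANK ligand and TRAIL, stayed under the filter with 18 counts in the controls, 17 of them in replicate 1, and 4 in the libraries labelled knockout.

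**Figure D2:**
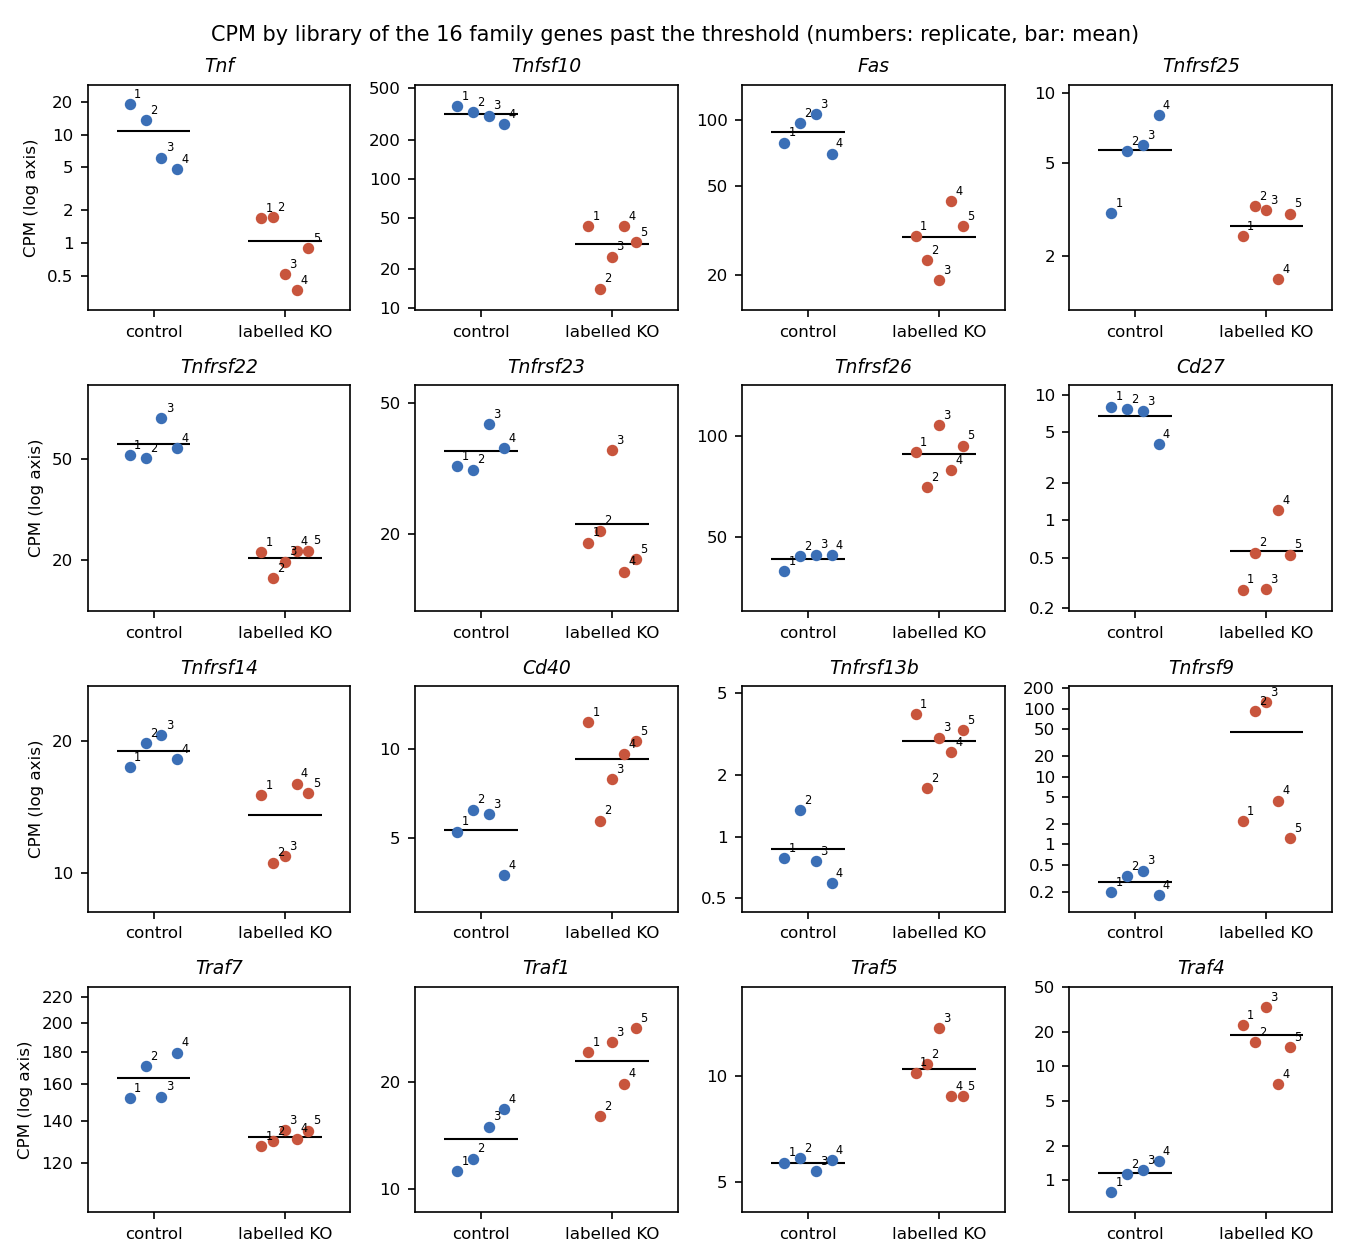
CPM of the 16 called members in each library, 1 panel per gene with its own log axis; points are libraries numbered by replicate and horizontal lines are group means. Tnfsf10, Cd27 and Tnf lie below every control in all 5 libraries labelled knockout (labelled KO), and the 91.7 and 124 CPM of Tnfrsf9 come from replicates 2 and 3.

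The remaining 15 receptors act mainly through TRAF adaptors. Of these 10 were tested, 3 rose and 2 fell. Cd27 (ENSMUSG00000030336, chromosome 6, 125232622 to 125237010, minus strand) is best known as a costimulatory receptor of lymphocytes that binds Cd70. It stood at 8.02, 7.62, 7.41 and 4.02 CPM in the controls and at 0.282, 0.555, 0.286, 1.22 and 0.534 CPM in the libraries labelled knockout. The groups lay well apart, and the mean fell 11.8-fold from 6.77 ± 1.85 to 0.575 ± 0.381 CPM (log2 fold change -3.57 ± 0.43, edgeR adjusted p = 3.43e-04). T and NK cell markers summed to 0.532 to 2.44 CPM in the controls and 1.54 to 2.21 CPM in the libraries labelled knockout. B cell markers summed to 2.48 to 9.40 CPM in the controls and 6.39 to 11.1 CPM in the libraries labelled knockout. The part of these cells in the fall of Cd27 was not tested.

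Tnfrsf14, the receptor known as HVEM, fell by less. It was at 17.4, 19.8, 20.6 and 18.1 CPM in the controls and at 15.1, 10.6, 10.9, 15.98 and 15.2 CPM in the libraries labelled knockout, with no overlap (log2 fold change -0.49 ± 0.14, edgeR adjusted p = 0.0289). The call ended without control replicate 2 or 3 (edgeR adjusted p = 0.0764 and 0.0808) or when replicate 3 labelled knockout was left out (0.0534). Its ligand gene Tnfsf14 had 8 and 14 counts in the groups and was not tested.

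Tnfrsf9 (ENSMUSG00000028965, chromosome 4, 150914562 to 150946102, plus strand), an inducible costimulatory receptor, showed the widest range of the family. It stood at 0.196, 0.344, 0.410 and 0.177 CPM in the controls, 36 counts in all. In the libraries labelled knockout it stood at 2.19, 91.7, 124, 4.42 and 1.24 CPM. All 5 lay above every control, but replicates 2 and 3 averaged 108 CPM and the other 3 averaged 2.61 CPM. These are the libraries that stood apart in endothelial, stellate and lymphatic markers, whose part in the rise was not tested. The log2 fold change was 7.30 ± 1.76 (edgeR adjusted p = 0.0128) with all libraries, 6.44 (0.0213) without replicate 3, and 3.20 (0.00151) without both. The call ended in limma-voom (adjusted p = 0.257) and in the fit without a count filter (edgeR adjusted p = 0.0597).

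Tnfrsf13b, the TACI receptor for BAFF and APRIL, stood at 0.785, 1.34, 0.756 and 0.591 CPM in the controls and at 3.95, 1.73, 3.04, 2.58 and 3.31 CPM in the libraries labelled knockout. The groups did not overlap, and the mean rose 3.36-fold from 0.869 ± 0.327 to 2.92 ± 0.832 CPM (log2 fold change 1.74 ± 0.32, edgeR adjusted p = 0.00327). TACI is best known from B cells; 0 of the 7 tested B cell markers passed the threshold, and the part of such cells in this rise was not tested. The other receptors of these ligands were not tested, with 7 and 24 counts of Tnfrsf13c and 9 and 4 of Tnfrsf17 in controls and libraries labelled knockout.

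Cd40, the receptor of CD40 ligand on antigen-presenting cells and endothelium, stood at 5.27, 6.25, 6.05 and 3.75 CPM in the controls and at 12.3, 5.74, 7.93, 9.65 and 10.7 CPM in the libraries labelled knockout. Replicate 2 of the second group lay within the control range, and the mean rose 1.74-fold (log2 fold change 0.80 ± 0.24, edgeR adjusted p = 0.0310). The call ended without control replicate 1, 3 or 4 (edgeR adjusted p = 0.0757, 0.0521 and 0.0757) or when replicate 1, 4 or 5 labelled knockout was left out (0.0645, 0.0540 and 0.0619), and with sex as a term (0.0611).

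Ltbr, the lymphotoxin beta receptor, which signals to non-canonical NF-kB, was abundant at 204 ± 6.84 and 221 ± 28.2 CPM and did not pass the test (log2 fold change 0.11 ± 0.10, edgeR adjusted p = 0.437). Tnfrsf1b, the receptor for membrane-bound TNF, was at 4.92 ± 0.678 and 7.93 ± 5.34 CPM (log2 fold change 0.69 ± 0.42, edgeR adjusted p = 0.250). Its highest value, 16.6 CPM, was in replicate 2 of the libraries labelled knockout, and it passed with sex as a term (edgeR adjusted p = 0.0414). Tnfrsf12a, the TWEAK receptor, was at 3.23 ± 0.640 and 4.63 ± 1.70 CPM (log2 fold change 0.52 ± 0.28, edgeR adjusted p = 0.194). Tnfrsf11a, which encodes RANK, was at 2.31 ± 0.844 and 2.19 ± 1.05 CPM, and Tnfrsf4, which encodes OX40, at 0.902 ± 0.151 and 1.01 ± 0.204 CPM, and neither passed.

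All 9 adaptors were tested, 3 rose and 1 fell. Traf4 (ENSMUSG00000017386, chromosome 11, 78158499 to 78165589, minus strand) is a TRAF also known from development and from cell junctions. It stood at 0.785, 1.12, 1.23 and 1.48 CPM in the controls and at 23.1, 16.3, 33.2, 7.03 and 14.8 CPM in the libraries labelled knockout. Each of the 5 lay well above the highest control, and the mean rose 16.4-fold from 1.15 ± 0.287 to 18.9 ± 9.85 CPM (log2 fold change 4.03 ± 0.45, edgeR adjusted p = 2.59e-04).

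Traf5, an adaptor of Cd27, Cd40 and Ltbr, stood at 5.66, 5.84, 5.36 and 5.76 CPM in the controls and at 10.2, 10.8, 13.6, 8.76 and 8.75 CPM in the libraries labelled knockout. The groups did not overlap, and the mean rose 1.84-fold (log2 fold change 0.88 ± 0.15, edgeR adjusted p = 0.00214). Traf1, an NF-kB target that pairs with Traf2, stood at 11.3, 12.2, 15 and 16.8 CPM and at 24.3, 16.05, 25.9, 19.8 and 28.4 CPM, with replicate 2 of the libraries labelled knockout inside the control range. The mean rose 1.66-fold (log2 fold change 0.73 ± 0.18, edgeR adjusted p = 0.0149), and the call ended without control replicate 2 (0.0509). Traf7, a RING and WD-repeat member of the family, stood at 152, 171, 153 and 179 CPM in the controls and at 128, 130, 135, 131 and 135 CPM in the libraries labelled knockout. The fall was small but the groups lay apart (log2 fold change -0.31 ± 0.07, edgeR adjusted p = 0.00882).

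The adaptors nearest to the TNF receptor did not pass the threshold. Tradd, the first adaptor of the receptor, was at 17.8 ± 1.42 and 18.8 ± 2.03 CPM, and Traf2, which brings ubiquitin ligases to it, at 31.1 ± 1.75 and 32.0 ± 4.57 CPM. Traf3, a brake on non-canonical NF-kB, was at 40.1 ± 5.44 and 37.0 ± 5.21 CPM, and Traf6, which also serves interleukin and Toll-like receptors, at 49.3 ± 3.46 and 51.2 ± 3.62 CPM. The kinase gene Ripk1 was at 96.1, 102, 102 and 102 CPM in the controls and at 93.9, 93.0, 79.0, 83.0 and 90.9 CPM in the libraries labelled knockout. Its groups did not overlap, yet the log2 fold change of -0.19 ± 0.07 missed the threshold (edgeR adjusted p = 0.0649), and DESeq2 placed it just past (adjusted p = 0.0474).

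**Figure D3:**
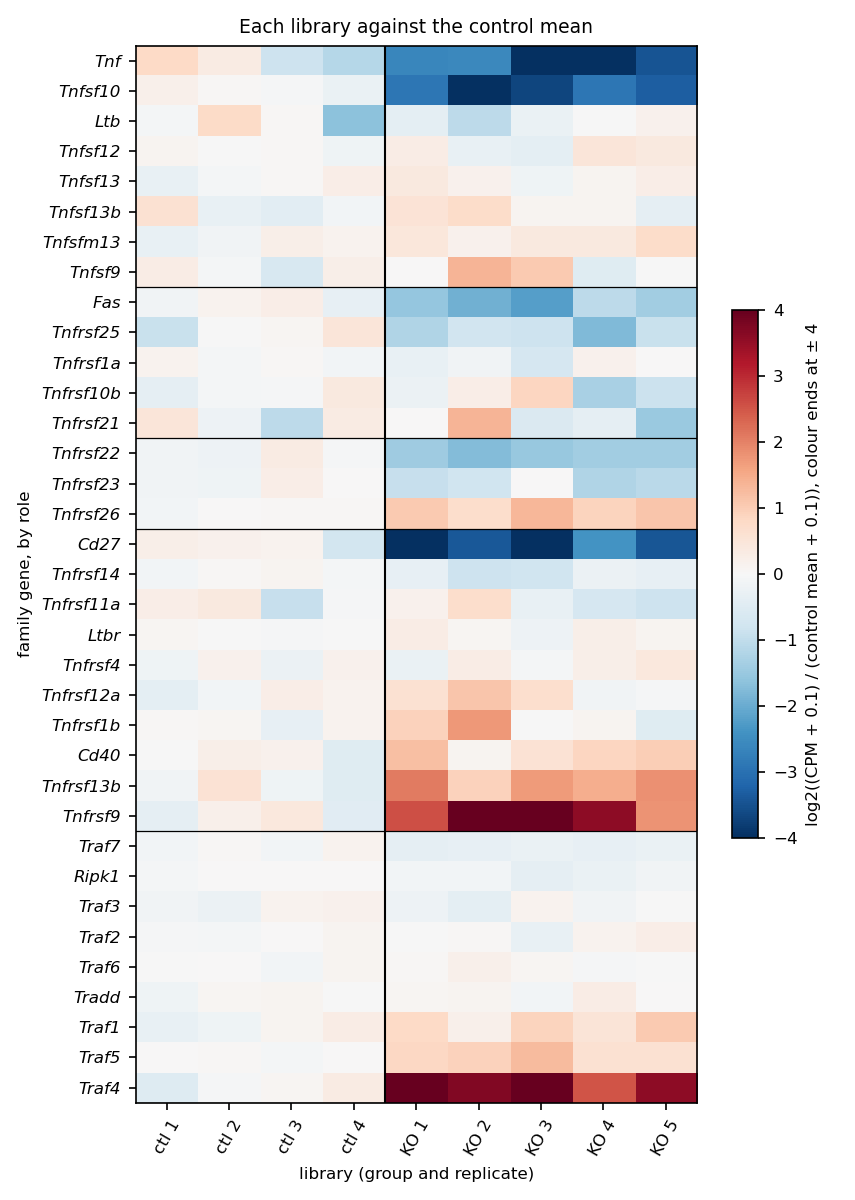
Log2 of each library's CPM over the control mean for the 35 tested members, with a pseudocount of 0.1 CPM, 1 column per library (ctl for control, KO for labelled knockout) and 1 row per gene grouped by role; the colour scale stops at 4 in either direction. The 5 columns of libraries labelled knockout share their colour for Tnfsf10, Cd27, Fas, Tnfrsf22, Tnfrsf26 and Traf4, and replicates 2 and 3 stand out for Tnfrsf9.

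Compared per length of exon, levels in RPKM (CPM per kilobase of exon) ordered the family differently in the groups. In the controls Tnfrsf1a came first at 232 ± 19.4 RPKM, followed by Ltbr at 86.8 ± 2.91, Tnfsf10 at 60.1 ± 7.87, Fas at 42.6 ± 7.84, Traf7 at 27.9 ± 2.30 and Tnfsf12 at 21.9 ± 1.76 RPKM. These 6 were spaced by more than the SDs of neighbours, whereas Tnfrsf22, Tnfrsf26 and Tnfrsf14, at 13.6, 13.4 and 13.2 RPKM, lay within theirs. In the libraries labelled knockout Tnfrsf1a (208 ± 45.0 RPKM) and Ltbr (93.8 ± 11.98 RPKM) kept the first places, Tnfrsf26 was the third at 27.5 ± 4.43 RPKM, and Tnfsf10 was number 13 at 5.97 ± 2.33 RPKM. Tnfsf12, at 24.1 ± 6.30 RPKM, did not differ beyond the spread from Tnfrsf26 or from Traf7 at 22.5 ± 0.566 RPKM.

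**Figure D4:**
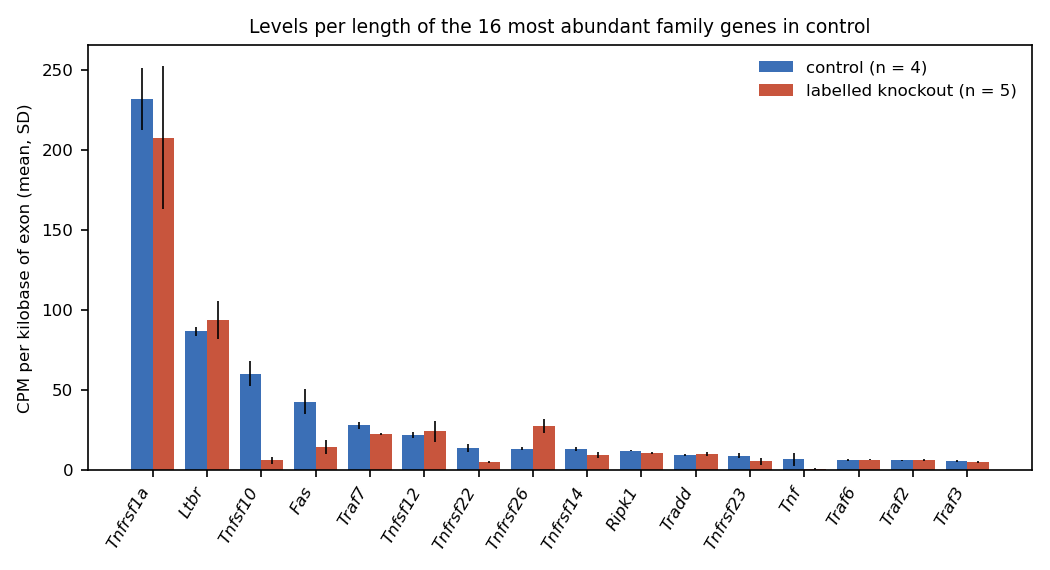
Level per length (CPM per kilobase of exon, linear axis) of the 16 members with the highest control level; bars are group means of the 4 control libraries and the 5 libraries labelled knockout, and lines 1 SD. Tnfrsf1a and Ltbr lead in each group, while Tnfsf10 drops from 60.1 to 5.97 RPKM and Tnfrsf26 moves from 13.4 to 27.5 RPKM.

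The 17 members under the filter had few or no counts. Cd70 and Tnfsf11, the ligands of Cd27 and of RANK, had 0 counts in all 9 libraries, which allows up to 0.0234 CPM in the controls and 0.0192 CPM in the libraries labelled knockout, taken as 3 counts over a group and covering counting error only. Tnfsf15 had 11 counts in the controls and 47 in the libraries labelled knockout, 35 of them in replicate 3. Tnfsf18 had 6 and 17 counts, Tnfsf8 2 and 8, and Tnfsf4 0 and 2. Among receptors, Ngfr had 9 and 10 counts, Tnfrsf19 2 and 10, Tnfrsf18 3 and 8, and Tnfrsf8 1 and 0. The antisense transcript Tnfsf13os had 11 and 21 counts.

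Promoter windows from RefSeq (GRCm38.p6), 250 bases before to 50 after a start site, were found for 41 of the 52 members, 46 windows in all. Erg and Fli1 bind ETS motifs with a GGAA core, and the letters CNGGAAG (either strand) occurred in 20 of the 46 member windows, 43.5%, and in 31.9% of all 32851 windows. They occurred in 5 of the 9 windows of members that fell, in 3 of the 6 of members that rose, in 7 of the 17 of members that missed the threshold and in 5 of the 14 of members not tested. These letters were widened after a first search for ACCGGAAG and ACAGGAAG, which matched 1 and 2 member windows (2.17% and 4.35%) against 2.3% and 3.58% of all windows. NF-kB letters, GGG and TTCC with any 3 bases between, occurred in 7 member windows (15.2%, against 5.56% of all), letters of an interferon response element, GAAA repeated after any 2 bases, in 5 (10.9%, against 3.44%), and TTCNNNGAA of a STAT site, added after the first search, in 10 (21.7%, against 8.3%). ETS and STAT letters can overlap, both strands were searched, and a match describes the letters only.

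Upstream stretches of 3 members with large changes and ETS letters, chosen after their values and matches were seen, are printed 5′ to 3′ on the strand of the gene, up to the first annotated exon base, with ETS letters in capitals. They show Tnfsf10 at chr3:27316827-27317027 (plus strand), Cd27 at chr6:125237028-125237277 (minus strand) and Traf4 at chr11:78165590-78165800 (minus strand).
Tnfsf10: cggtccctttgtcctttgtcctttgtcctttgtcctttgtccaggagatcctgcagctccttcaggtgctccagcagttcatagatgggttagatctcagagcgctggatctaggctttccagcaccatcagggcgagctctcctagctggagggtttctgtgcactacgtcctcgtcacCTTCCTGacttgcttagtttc
Cd27: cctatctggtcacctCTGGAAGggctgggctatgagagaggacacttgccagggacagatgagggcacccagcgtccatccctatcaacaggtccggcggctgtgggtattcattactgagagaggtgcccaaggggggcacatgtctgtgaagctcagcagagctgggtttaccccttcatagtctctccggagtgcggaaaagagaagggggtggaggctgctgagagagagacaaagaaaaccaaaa
Traf4: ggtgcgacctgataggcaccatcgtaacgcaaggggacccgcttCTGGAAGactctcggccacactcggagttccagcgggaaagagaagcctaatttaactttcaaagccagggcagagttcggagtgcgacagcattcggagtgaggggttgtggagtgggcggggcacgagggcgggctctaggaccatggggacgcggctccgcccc
The match in Tnfsf10 lay 70 to 64 bases before the RefSeq start site, that in Cd27 235 to 229 bases before it and that in Traf4 206 to 200 bases before it, and Traf4 had another, 37 to 31 bases before the start, inside the annotated exon. Of the 2 windows of Tnfrsf9, the one that starts further into the gene held the NF-kB letters GGGGATTTCC 43 to 34 bases before its start site. This match lay past the first annotated exon base of that window. Tnf, whose fall was as large, had none of these letters in its window, which says only that they are not in this stretch.

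Beyond the family, 91 genes of its signalling pathways were listed, with earlier results of these data known, and 84 were tested. Of these 16 rose and 16 fell, 38.1%, beside the 29.3% of all genes tested. Without control replicate 2 the count of rises was 9. Among 28 tested genes of receptor complexes and their ubiquitin ligases 7 rose and 6 fell, 46.4% in all. Xiap, an inhibitor of caspases, fell 2.36-fold from 410 ± 33.9 to 174 ± 9.57 CPM (log2 fold change -1.24 ± 0.08, edgeR adjusted p = 1.9e-05). Rnf31, the catalytic subunit of the linear ubiquitin ligase, fell from 115 ± 14.6 to 68.2 ± 5.603 CPM. Traf3ip2, an adaptor of interleukin-17 receptors, rose from 10.8 ± 2.95 to 32.1 ± 6.91 CPM, and Birc3, a ubiquitin ligase bound by Traf2, rose from 50.6 ± 3.23 to 88.3 ± 15.8 CPM.

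In the cell death branch, 2 of 14 tested genes rose and 2 fell, 28.6% in all and near the 29.3% of all genes tested. Diablo, which antagonises Xiap, rose from 20.8 ± 3.26 to 37.1 ± 2.59 CPM, and Mlkl, the effector of necroptosis, rose from 46.1 ± 4.51 to 71.9 ± 10.2 CPM. Bak1, a pore former of the mitochondrial membrane, fell from 76.4 ± 9.03 to 56.7 ± 6.85 CPM, a call that ended when replicates 2 and 3 labelled knockout were left out together (edgeR adjusted p = 0.0525).

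Of the 15 NF-kB genes, 3 rose and 2 fell, 33.3% in all and near the 29.3% of all genes tested. The subunit genes Rel and Nfkb1 fell from 49.0 ± 4.73 to 26.9 ± 7.59 CPM and from 262 ± 19.6 to 201 ± 17.3 CPM. The kinase subunit genes Chuk and Ikbkg rose by little, from 60.6 ± 7.49 to 75.5 ± 4.51 CPM and from 41.8 ± 1.85 to 47.9 ± 2.32 CPM (edgeR adjusted p = 0.0235 and 0.0408). The call of Chuk ended without control replicate 1, 2 or 3 (edgeR adjusted p between 0.0648 and 0.0783). It also ended with a sex term, with the replicate block and without replicates 2 and 3 labelled knockout together (0.0546, 0.0623 and 0.0650). The call of Ikbkg ended without any one of the controls or when replicate 2, 4 or 5 labelled knockout was left out (edgeR adjusted p between 0.0637 and 0.118). The same 3 settings ended it (0.0675, 0.125 and 0.0765), as did the fit without a count filter (0.137).

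Among genes of the endothelial response to TNF, 4 of 22 tested rose and 5 fell, 40.9% in all beside 29.3% of all genes tested. Of the leukocyte adhesion genes listed there, 3 fell and Sele did not pass, at 36.1 ± 15.8 and 31.9 ± 21.3 CPM (edgeR adjusted p = 0.850). Vcam1 went from 253 ± 29.1 to 60.3 ± 24.2 CPM, Icam1 from 248 ± 65.7 to 119 ± 15.2 CPM and Selp from 46.0 ± 6.37 to 18.5 ± 5.93 CPM. Il6, a cytokine, stood at 0.622, 0.125, 0 and 0.0886 CPM in the controls and at 1.55, 3.52, 1.92, 1.69 and 2.20 CPM in the libraries labelled knockout. It rose by a log2 fold change of 3.38 ± 0.75 (edgeR adjusted p = 0.00867) and of 4.85 without control replicate 1 (0.00188). Among relatives of the family outside the symbol rule 1 of 5 tested genes passed, Rell2, which fell from 4.48 ± 0.346 to 2.63 ± 0.867 CPM (edgeR adjusted p = 0.0348). That call ended without any one of the controls or when replicate 1, 2, 4 or 5 labelled knockout was left out (edgeR adjusted p between 0.0592 and 0.0807). It also ended with the replicate block (0.104).

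**Figure D5:**
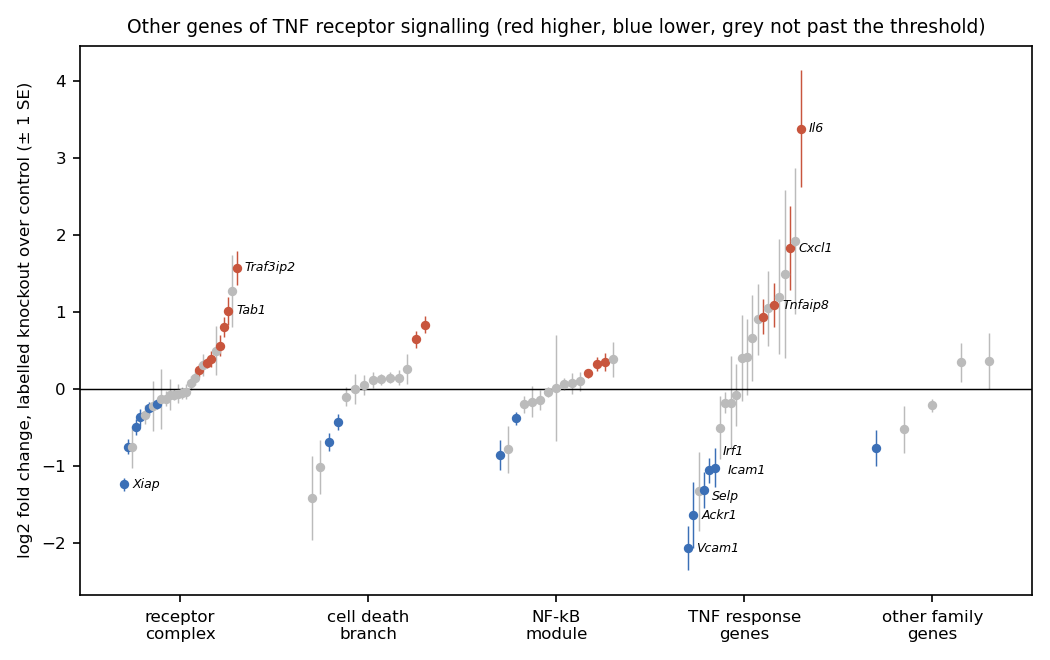
Log2 fold change of the 84 tested pathway genes, libraries labelled knockout over control, 1 column per list, with lines of 1 standard error; red points rose and blue points fell at an edgeR adjusted p under 0.05, and names mark such genes beyond 2-fold. The TNF response genes spread widest, from Vcam1 at -2.07 to Il6 at 3.38.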

How the data were processed

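The authors deposited raw counts per Ensembl gene, 1 column per library, and GRCm38, STAR 2.7.6a and FastQC 0.11.5 are listed per the submitters' processing notes. Not given in the sources used here were the program that counted reads, its strand setting and the annotation release. Per the labels' protocols, libraries came from an unstranded or a stranded TruSeq kit, with no statement of which library had which. Reads of genes that overlap on opposite strands may therefore be merged. Counting either strand, 12 members share exon bases with another gene, 6 of the tested ones with a tested gene. Of those 6, Ripk1, Tnfrsf23 and Tnfrsf26 overlap a tested gene on the opposite strand, whereas Tnfsf12 and Tnfsf13 each overlap Tnfsfm13 on the same strand.

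Groups and replicate numbers came from the sample titles, and count columns were matched to sample descriptions, leaving 0 columns unused. Symbols came from GENCODE M21 and, for rows absent from it, from a further list of gene names. Together they gave symbols for 52489 rows and none for 147. Rows were filtered with filterByExpr (minimum count 10, minimum total 15), scaled by TMM and fitted in R 4.3.3 with edgeR 4.0.16 (robust glmQLFit, glmQLFTest, no covariate), with Benjamini-Hochberg adjustment over 14583 genes at a threshold of 0.05. The SE is the log2 fold change over the square root of F. Libraries of 26791371 to 36401682 counts make 1 count worth 0.0260 to 0.0368 CPM. The common biological coefficient of variation was 26.3%. Coding sequences were aligned with mafft 7.526.

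Each group held both sexes, read from Xist and Ddx3y (3 male controls and 1 female, 2 males and 3 females labelled knockout). The labels do not say that each library is a separate animal, so the p-values reflect only how these samples spread, which may be technical in part. No library was a copy of another, since pairs within a group gave a chi-square of 20.3 to 182 per degree of freedom. Members, lists, alternatives and the rule for named genes were chosen with earlier results of these data known. By that rule every tested member is named, called members are given per library, and each pathway list gives its 4 called genes of smallest p at most. A gene that the rule took is not reported here. Alternatives were DESeq2 1.42.0, limma-voom (limma 3.58.1), 2 other scalings, no count filter, a filter of 5 CPM in 4 samples, a replicate block, a sex term, leaving out each library, and dropping replicates 2 and 3 labelled knockout at once.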

Additional observations from a re-analysis of the deposited data

Results flagged for a closer look

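Among 74 groups of libraries, those of the 35 tested members and of Erg and Fli1, 4 held a library whose gap to the nearest other passed Dixon's critical value for its group size. Chance flags about 1 group in 20. Cd27 stood at 4.02 CPM in control replicate 4, under the 7.41 to 8.02 CPM of the other 3 controls. Ripk1 stood at 96.1 CPM in control replicate 1, and Tnfrsf26 at 39.6 CPM in the same library, each the lowest of its group by a small amount. Tnfrsf23 stood at 35.9 CPM in replicate 3 of the libraries labelled knockout, above the 15.3 to 20.4 CPM of the other 4.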

How the results depend on the processing

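The 16 called members kept their direction in every one of the 18 alternatives in which they were tested, and 9 of them kept their call: Tnf, Tnfsf10, Fas, Tnfrsf22, Tnfrsf26, Cd27, Tnfrsf13b, Traf4 and Traf5. The filter of 5 CPM left Tnf, Cd27, Tnfrsf13b, Tnfrsf25 and Tnfrsf9 untested. Members called numbered 5 to 8 higher and 6 to 10 lower. Pathway genes called higher numbered 9 to 16 on leaving out 1 library. Same-numbered libraries did not deviate together (correlations 0.291, -0.0308, -0.0183 and -0.333, and 1 of 4 libraries correlated best with its own number). The labels give no pairing of controls with libraries labelled knockout, and replicate 5 labelled knockout has no control of its number. With the replicate block, calls over all genes numbered 1296 higher and 1375 lower against 2110 and 2161, pathway genes called higher numbered 10, and 11 of the 16 called members kept their call. Cd40, Tnfrsf14, Tnfrsf25, Traf1 and Traf7 lost theirs (edgeR adjusted p = 0.144, 0.0844, 0.0939, 0.0524 and 0.0567), as did Fli1 (0.0639). Traf7 lost its call in no other alternative. Where the log2 fold change changed sign, the member had missed the threshold, and the cause was not tested. On leaving out 1 library, Ltb ranged from -0.66 to 0.17, Tnfrsf10b from -0.43 to 0.14, Tnfrsf11a from -0.37 to 0.083, Tnfrsf21 from -0.55 to 0.34 and Traf2 from -0.023 to 0.12. With the replicate block Tnfrsf11a was at 0.058 and Traf2 at -0.032, and with the sex term Tnfrsf11a was at 0.30. Without replicates 2 and 3 labelled knockout together, Tnfrsf21 was at -0.52 and Tnfsf9 at -0.14, and limma-voom put Tnfrsf21 at -0.11.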
